A study of Mus musculus with 6 samples.

Results

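The genes described here are 32 established transcriptional targets of p53 in the mouse, measured in 3 cultured mouse cancer cell lines with and without a short hairpin RNA against Spp1, the gene of osteopontin. They were found on the arrays by symbol, as probe sets annotated to the 32 names, and the list was drawn up with earlier results of these data known. Of these genes, 29 had a probe set that carries only their own symbol, out of 22180 genes named in this way, and all 29 were bright enough to be tested among 16797 genes. The arrays carried no probe set with the name of Bax or Fdxr alone in the annotation used here. That of Gadd45a also names a second transcript, so these 3 members are left out of all counts below. The members fall into 4 roles: arrest and feedback with 7 listed genes, apoptosis with 13, DNA repair and nucleotide supply with 4, and metabolism and stress with 8.

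The p53 protein is a transcription factor that is held at a low level by the ubiquitin ligase Mdm2 and accumulates after DNA damage and other stress. It then binds response elements made of paired decamers and switches on genes that stop the cell cycle, repair DNA, adjust metabolism or start apoptosis. Several of these genes, such as Plk2, Btg2 and Ddit4, also respond to growth factors or metabolic stress without p53.

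RNA came from LLC (Lewis lung carcinoma), AE17 (malignant mesothelioma) and MC38 (colon adenocarcinoma), grown in medium with fetal bovine serum. Each line gave 1 array labelled sh Ctrl, which also carries the genotype label wild type, and 1 labelled sh Spp1, with the genotype label Spp1 depletion, so there were 6 arrays in all. The labels do not say whether the sh Ctrl cells received a control hairpin, nor whether the sh Spp1 cells were a clone or a pool. Spp1 and Trp53 themselves were not analysed here, since 0 of the named probe sets used carry either symbol alone. Within a line every difference is 1 array against 1 array without a replicate, and the 3 lines served as the replicates of the hairpin comparison.

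The 6 arrays held 41345 probe sets each, with median intensities from 26.6 to 64.2 before normalisation, and all levels below are quantile-normalised log2 intensities unless another scale is named. After normalisation the 2 AE17 arrays correlated across probe sets at r = 0.939, against 0.979 for LLC and 0.982 for MC38. Each AE17 array correlated more closely with the LLC arrays (0.943 to 0.954) and the MC38 arrays (0.942 to 0.949) than with the other AE17 array. Mesenchymal genes moved with that pair: the collagen gene Col1a1 had 6.87 on the AE17 sh Ctrl and 11.96 on the AE17 sh Spp1 array, and 3 of 4 such markers were higher by at least 1 log2 unit there (median 2.75), against medians of -0.45 in LLC and -0.66 in MC38. Their part in the AE17 ratios below was not tested. A level under 4.49, the brightness floor, was read as background. The leukocyte gene Ptprc lay under it on all 6 arrays, between 2.86 and 3.33, and 4 of 6 leukocyte markers passed it, while the mesenchymal filament gene Vim lay between 12.75 and 13.34. The lung factor Nkx2-1 had 5.06 and 4.96 in LLC. In each of the 3 lines alike, 3 of 4 lung epithelial markers reached the floor on at least 1 array. The epithelial adhesion gene Epcam had 3.54 and 3.80 in MC38, under the floor, while 4 of 5 intestinal epithelial markers reached it in each line. Of 5 mesothelial markers, the antigen Msln was at 5.13 and 5.34 in AE17 but at 9.87 and 9.96 in MC38, and 3 of the 5 had higher and 2 lower mean levels in MC38 than in AE17. Gata6 and Pdpn were higher by 2.76 log2 units each on the AE17 sh Spp1 array. Such bulk levels cannot tell fewer expressing cells from less RNA per cell.

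Decamer pairs of the kind p53 binds are shown first, because the members were chosen as its targets. RefSeq promoter windows of GRCm38.p6, from 250 bases before to 50 after an annotated start, were matched by symbol for 25 of the 32 genes. Pmaip1, Trp53inp1, Xpc, Zmat3, Tnfrsf10b, Rrm2b and Perp had no window. An exact match to the p53 half-site consensus, which reads the same on both strands, stood in windows of 10 of the 25 genes. By window these were 11 of the members' 32 windows (34.4%), against 8.36% of all 32851 windows. A pair of adjacent decamers with at most 2 mismatches stood in windows of 3 genes, Cdkn1a, Ccng1 and Rps27l, which is 9.38% of the members' windows, and in 0.326% of all windows. The window of Cdkn1a at its upstream annotated start holds both kinds of match. The 150 bases just before that start, chr17:29090829-29090978 on the plus strand, read as follows, with exact half-sites and the adjacent pair in capitals.
Cdkn1a: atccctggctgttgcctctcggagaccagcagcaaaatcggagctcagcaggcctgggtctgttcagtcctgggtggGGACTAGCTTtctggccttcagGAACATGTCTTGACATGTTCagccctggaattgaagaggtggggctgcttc
The adjacent pairs alone, all in capitals, lie at chr17:29090928-29090947 on the plus strand for Cdkn1a, chr11:40755462-40755481 on the minus strand for Ccng1 and chr9:66946296-66946315 on the plus strand for Rps27l, each with 1 mismatch to the consensus.
Cdkn1a: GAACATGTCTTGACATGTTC
Ccng1: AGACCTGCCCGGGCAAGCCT
Rps27l: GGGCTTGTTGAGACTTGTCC
Sesn1, Bax and Gadd45a held a half-site with a partner at a distance of at most 13 bases, Mdm2, Polk, Ei24 and Aen half-sites without a partner, and Btg2, Plk2, Plk3, Eda2r, Phlda3, Bbc3 and Fas held none in these windows. A match describes letters only. Cdkn1a, Ccng1 and Rps27l had mean log2 ratios for the hairpin of 0.82 ± 0.35, 0.21 ± 0.22 and 0.08 ± 0.38 (SD, n = 3 lines), so genes with an adjacent pair had ratios of different size.

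The first comparison set the sh Spp1 array against the sh Ctrl array of each line. In LLC 25 of the 28 members above the floor were higher on the sh Spp1 array and 3 were lower, while of all 17054 genes 52.7% were higher and 47.2% lower. The median member log2 ratio there was 0.61, against 0.03 for all genes, and 5 members were higher by at least 1 log2 unit, which is 2-fold, against 1.75% of all genes. No LLC member was lower by that much, where 1.81% of all genes were. In AE17 16 members were higher and 13 lower, against 47.4% and 52.6% of all genes. The AE17 median was 0.07, and 8 were higher and 3 lower by at least 1 log2 unit, against 9.9% and 8.71% of all genes. In MC38 18 were higher and 11 lower, against 52.5% and 47.5%. The MC38 median was 0.14, and 1 was higher and 1 lower by at least 1, against 0.882% and 1.7%. The splits moved with the scaling: as deposited, LLC had 22 higher and 6 lower (25.7% of all genes higher), AE17 15 and 14 (37.9%) and MC38 21 and 8 (56.8%). Centred on the array medians, LLC had 27 and 1 (71.8%), AE17 23 and 6 (61.8%) and MC38 23 and 6 (71.1%).

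**Figure D1:**
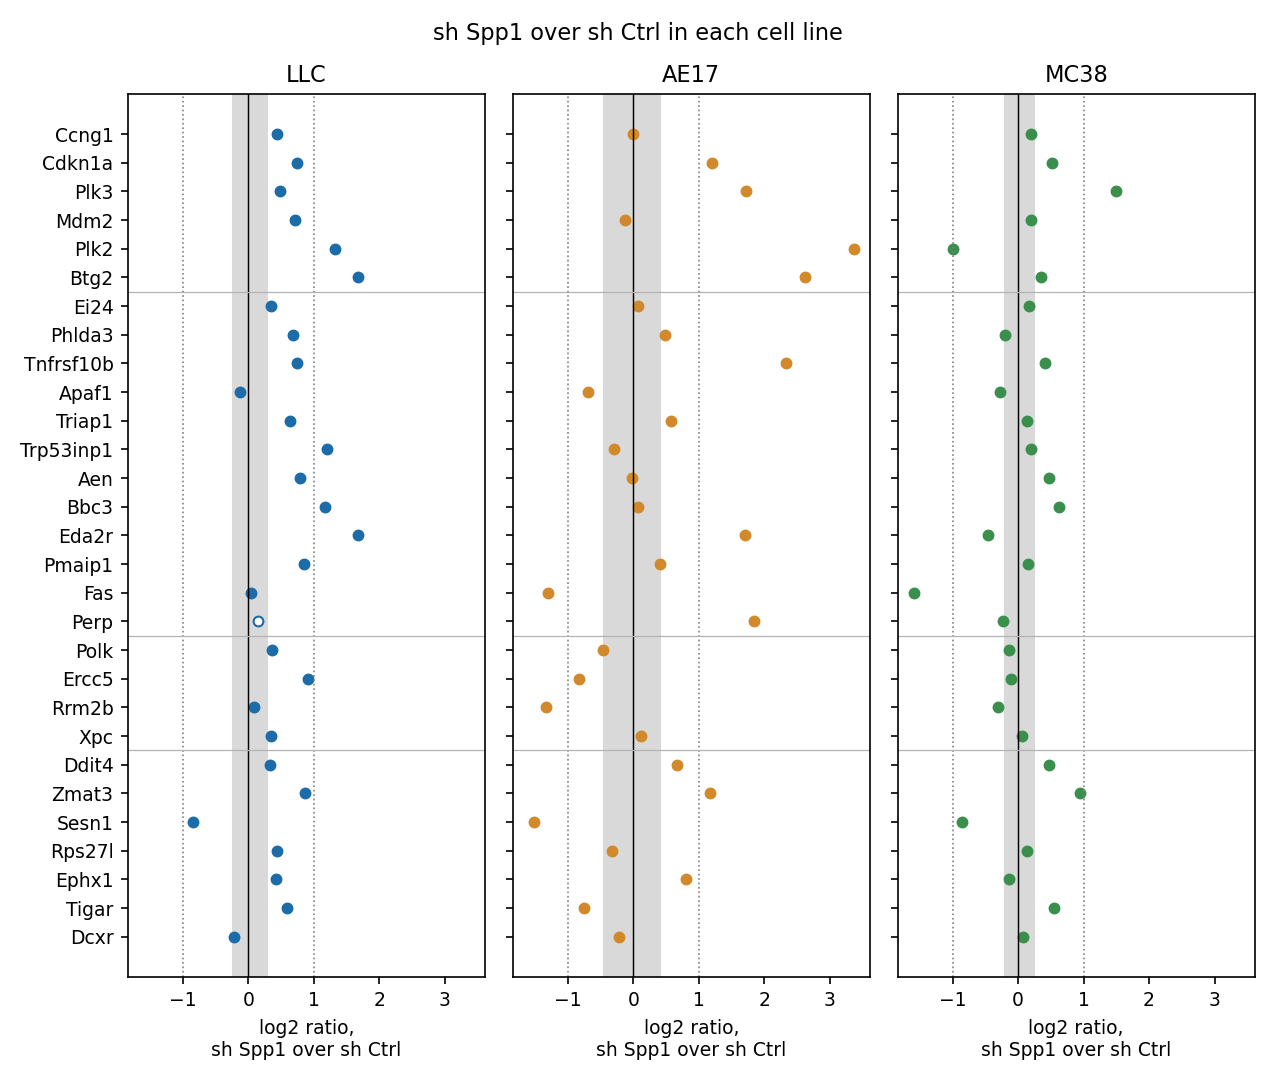
Log2 ratio of the sh Spp1 over the sh Ctrl array for the 29 members in LLC, AE17 and MC38, 1 array each, grouped by role (top to bottom: arrest and feedback, apoptosis, repair, metabolism and stress). Grey bands span the interquartile range of all genes, dotted lines mark 1 log2 unit, and the open point is a member under the brightness floor on both arrays; in LLC 25 of the 28 filled points lie right of 0, while the AE17 points spread from -1.52 to 3.37.

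Over the 3 lines, limma with the line as a block gave 0 members and 0% of all genes at an adjusted p under 0.05. At an unadjusted limma p under 0.05 were 7 members (6.05% of all genes), of which 6 were higher (3.45%) and 1 was lower (2.61%), each with an adjusted p of 0.723. They were Cdkn1a, Btg2, Plk3, Tnfrsf10b, Ddit4 and Zmat3, and, lower, Sesn1. Of the 29 members, 11 had a ratio above 0 in every line, against 16.8% of all genes, and 2 had a ratio below 0 in every line, against 15.5%. Without AE17, whose arrays differed most from each other, 17 were above 0 in both remaining lines (30.2% of all genes) and 2 were below (25.1%). Without LLC, 11 were above 0 in the other two lines (27.5%) and 6 below (27.9%). In centred values 19 were above 0 in every line (41.5%) and 1 below (8.12%). As deposited 10 were above 0 in every line and 3 below, and the shares of all genes on that scale are not given here.

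Genes of arrest and feedback were higher on the sh Spp1 array for 6 of 6 members in LLC (median 0.73), 4 of 6 in AE17 (1.46) and 5 of 6 in MC38 (0.28). The probe set that Gadd45a shares with a second transcript is not counted here. Its ratios were 0.96 in LLC, -1.86 in AE17 and -0.06 in MC38. Levels are given below as the sh Ctrl array and then the sh Spp1 array. Cdkn1a (Entrez gene 12575), the cyclin-dependent kinase inhibitor p21, had 11.23 and 11.97 for LLC, 10.12 and 11.33 for AE17, and 9.77 and 10.28 for MC38. Its sh Spp1 level was the higher one in every line, by 1.67-, 2.3- and 1.43-fold, though the ranges of the 2 labels overlapped across lines (limma, adjusted p = 0.723). Plk3, a stress-activated kinase of the polo family, had 9.08 and 9.57, 8.18 and 9.90, and 9.01 and 10.51, a mean ratio of 1.23 ± 0.66 (SD, n = 3 lines; limma, adjusted p = 0.723). The 3 sh Spp1 levels of Plk3, from 9.57 to 10.51, lay above the 3 sh Ctrl levels, from 8.18 to 9.08, without overlap across lines.

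Btg2, an antiproliferative gene that lengthens G1, had 6.18 and 7.85 for LLC, 5.68 and 8.29 for AE17, and 5.79 and 6.15 for MC38. The 3 sh Ctrl levels lay within 0.50 of each other, and the sh Spp1 level was apart from them in LLC and AE17 but not in MC38, where it was under the LLC sh Ctrl level. Plk2, a related kinase, had 8.34 and 9.65, 5.31 and 8.68, and 9.95 and 8.96. It was 2.49-fold higher in LLC, 10.3-fold higher in AE17 and 1.98-fold lower in MC38, so its mean ratio of 1.23 ± 2.18 (SD, n = 3 lines) had the widest spread of the members. The AE17 sh Ctrl array stood apart in Plk2, far below the other 5 levels.

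The feedback genes differed less. Mdm2, the ligase that degrades p53, had 9.59 and 10.30 for LLC, 8.60 and 8.47 for AE17, and 8.31 and 8.51 for MC38. Ccng1, a cyclin that recruits a phosphatase to Mdm2, had 11.99 and 12.42 in LLC, 11.06 on both AE17 arrays, and 10.97 and 11.17 in MC38. In both genes each LLC level was above all 4 levels of the other lines, and the largest hairpin ratio, 0.71 for Mdm2 and 0.43 for Ccng1, was that of LLC.

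**Figure D2:**
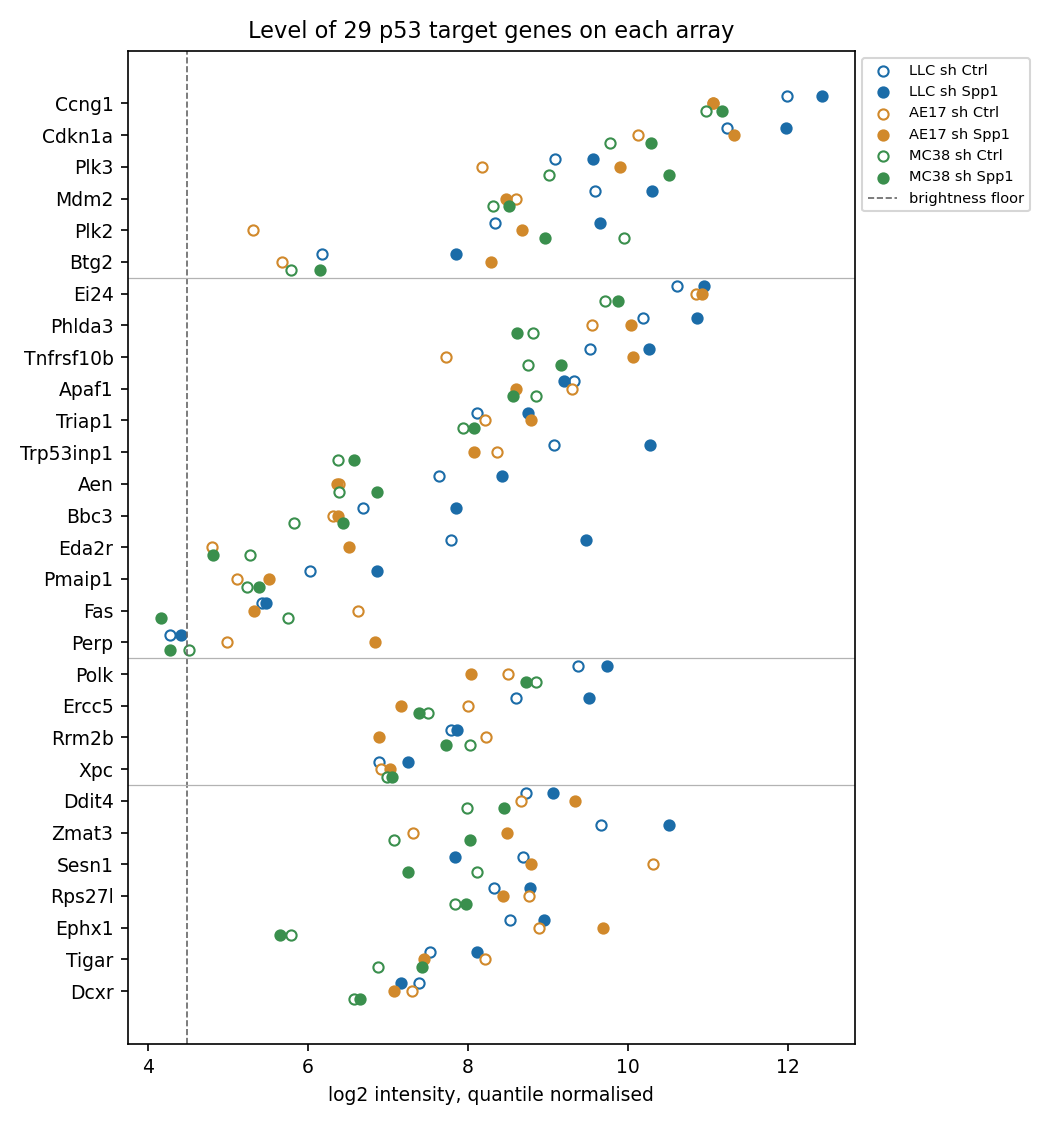
Quantile-normalised log2 intensity of the 29 members on each of the 6 arrays, with open points for sh Ctrl and filled points for sh Spp1, grouped by role and ordered by mean level; the dashed line is the brightness floor at 4.49. The blue LLC points lie to the right of the green MC38 points for most genes, as in Eda2r, Trp53inp1, Ephx1 and Zmat3.

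Among apoptosis genes, 10 of 11 measured above the floor were higher on the sh Spp1 array in LLC (median 0.73), 8 of 12 in AE17 (0.24; 6 of 12 as deposited) and 7 of 12 in MC38 (0.14). The death receptor Tnfrsf10b, which binds the ligand TRAIL, had 9.52 and 10.26 for LLC, 7.73 and 10.06 for AE17, and 8.75 and 9.16 for MC38. It was higher with the hairpin in each line and 5.02-fold higher in AE17, where its sh Ctrl level was the lowest of the 6. Fas, the receptor for Fas ligand, had 5.43 and 5.48, 6.63 and 5.33, and 5.76 and 4.17. Its ratio was close to 0 in LLC, though -0.74 in the values as deposited, while Fas was 2.46-fold lower in AE17. Its MC38 sh Spp1 level lay under the floor, so the size of that difference is not given. In AE17 the 2 death receptors had ratios of opposite sign.

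Eda2r, a receptor for ectodysplasin A2, had 7.79 and 9.47 for LLC, 4.80 and 6.51 for AE17, and 5.27 and 4.81 for MC38. The LLC and AE17 ratios were 1.68 and 1.71, from very different starting levels, and MC38 had -0.46. Those of LLC and AE17 were 1.58 and 1.34 as deposited, and 2.37 and 1.79 with centred arrays. The AE17 sh Ctrl and MC38 sh Spp1 levels of Eda2r lay close to the floor. Perp, a desmosomal protein with a part in apoptosis, did not reach the floor in LLC and had 4.99 and 6.84 in AE17 and 4.52 and 4.28 in MC38. Its AE17 sh Spp1 level stood apart, and the other 5 levels lay between 4.27 and 4.99, close to the floor.

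The BH3-only genes, whose proteins disable the survival proteins of the Bcl2 family, were Bbc3 and Pmaip1. Bbc3, or Puma, had 6.69 and 7.85 for LLC, 6.31 and 6.38 for AE17, and 5.83 and 6.45 for MC38. Pmaip1, or Noxa, had 6.03 and 6.87, 5.12 and 5.52, and 5.25 and 5.40. Both were higher with the hairpin in every line, with means of 0.62 ± 0.55 and 0.46 ± 0.35 (SD, n = 3 lines), but the Pmaip1 ratios of AE17 and MC38 were below 0 in the values as deposited, at -0.06 and -0.04, as was that of Bbc3 in AE17, at -0.12.

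Trp53inp1, a nuclear protein that promotes p53-dependent death, had 9.07 and 10.27 for LLC, 8.36 and 8.07 for AE17, and 6.37 and 6.57 for MC38. Aen, an apoptosis-enhancing nuclease, had 7.64 and 8.43, 6.39 and 6.37, and 6.38 and 6.86. Phlda3, an inhibitor of Akt signalling, had 10.19 and 10.86, 9.55 and 10.04, and 8.81 and 8.61. In these genes LLC had both the highest levels and the largest hairpin ratio, at 1.20, 0.79 and 0.67. Triap1, an inhibitor of apoptosis, had 8.12 and 8.75, 8.22 and 8.79, and 7.94 and 8.08. Ei24, an endoplasmic reticulum protein, had 10.61 and 10.95, 10.85 and 10.93, and 9.71 and 9.88. Both were higher with the hairpin in every line, by at most 0.63 log2 units, and both had their lowest levels in MC38. Apaf1, the scaffold of the apoptosome, was 1 of the 2 members lower in every line, with 9.32 and 9.20, 9.30 and 8.60, and 8.84 and 8.56, although its MC38 ratio was 0.06 in the values as deposited.

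The counts of repair and nucleotide genes depended on the scaling. On the sh Spp1 array 4 of 4 were higher in LLC (median 0.36; 2 as deposited and 4 centred), 1 of 4 in AE17 (-0.65; 1 as deposited and 2 centred) and 1 of 4 in MC38 (-0.12; 3 as deposited and 4 centred). Ercc5, an endonuclease of nucleotide excision repair, had ratios of 0.90 for LLC, -0.83 for AE17 and -0.11 for MC38. Rrm2b, the p53-inducible ribonucleotide reductase subunit, had 7.78 and 7.86, 8.22 and 6.88, and 8.02 and 7.72, so that it was 2.53-fold lower in AE17 and within 0.30 log2 units in the other lines. The translesion polymerase gene Polk had ratios of 0.36, -0.47 and -0.14, and the damage sensor gene Xpc 0.35, 0.12 and 0.07, of which the LLC value was -0.14 as deposited. Xpc had 6.90 and 7.25, 6.91 and 7.03, and 6.99 and 7.06, so its sh Spp1 levels lay above its sh Ctrl levels without overlap but within 0.35 log2 units.

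Genes of metabolism and stress were higher for 5 of 7 members in LLC (median 0.42), 3 of 7 in AE17 (-0.22) and 5 of 7 in MC38 (0.14). Zmat3, a zinc finger protein that binds RNA and regulates splicing, had 9.66 and 10.51 for LLC, 7.31 and 8.48 for AE17, and 7.08 and 8.03 for MC38. Its ratios of 0.86, 1.17 and 0.95 were the most even of the members with a ratio past 1 in any line, a mean of 0.99 ± 0.16 (SD, n = 3 lines; limma, adjusted p = 0.723). The sh Ctrl level of LLC was nonetheless above the sh Spp1 levels of both other lines. A probe set that Zmat3 shares with a second transcript is not counted here. Its ratios were 0.13 in LLC, -0.70 in AE17 and 0.16 in MC38, so it did not show these even ratios. Ddit4, an inhibitor of mTORC1, had 8.73 and 9.06, 8.66 and 9.33, and 7.99 and 8.45, a mean of 0.49 ± 0.17.

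Sesn1, a sestrin that links stress to mTORC1 through leucine sensing and limits oxidative damage, went against the majority of members. It had 8.69 and 7.84 for LLC, 10.31 and 8.79 for AE17, and 8.11 and 7.25 for MC38, which made it 1.8-, 2.86- and 1.82-fold lower (limma, mean -1.08 ± 0.38, SD, n = 3 lines; adjusted p = 0.723). Its relative Sesn2, which is not among the 32 and which ATF4 also induces, had 8.75 and 9.66, 7.80 and 8.67, and 7.63 and 8.89. The 2 sestrins had opposite signs in every line, after quantile normalisation and as deposited. Tigar, a fructose bisphosphatase that slows glycolysis, had ratios of 0.59, -0.75 and 0.55, and Rps27l, a ribosomal protein relative, 0.44, -0.32 and 0.14. The xenobiotic enzymes Ephx1 and Dcxr had 0.42, 0.80 and -0.13, and -0.23, -0.22 and 0.07.

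The second comparison asked how the members' levels differ between the lines, with both arrays of each line. MC38 had the lower levels: for 22 of the 29 members both MC38 arrays lay below both LLC arrays, against 24.2% of all genes, and for 0 members both lay above, against 24.9%. In the values as deposited these counts were 22 and 0, against 19% and 13.6% of all genes, and with centred arrays 14 and 0, against 13.6% and 20.1%. The median MC38 minus LLC difference in log2 level was -0.93 over the members and 0.00 over all genes, and 13 members were lower by at least 1 log2 unit (3.69% of all genes) and 0 higher (4.73%). The 22 members were 10 of 12 apoptosis genes, 4 of 6 arrest and feedback genes, 6 of 7 metabolism and stress genes and 2 of 4 repair genes. Plk2, Plk3, Perp, Fas, Rrm2b, Xpc and Sesn1 were the other 7, with overlapping levels.

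Eda2r was 12-fold lower in MC38 than in LLC, a difference of -3.59 (limma, SE 0.61, adjusted p = 0.164). Its MC38 sh Spp1 level of 4.81 lay close to the brightness floor. Trp53inp1 was 9.17-fold lower, at -3.20 (limma, SE 0.40, adjusted p = 0.102). Ephx1, the microsomal epoxide hydrolase, was at 8.53 and 8.94 in LLC, 8.88 and 9.68 in AE17, but 5.79 and 5.65 in MC38. It was 8.09-fold lower in MC38 than in LLC (limma, SE 0.29 on the log2 scale, adjusted p = 0.0682) and 11.8-fold lower than in AE17 (limma, adjusted p = 0.069). Zmat3 was 5.78-fold lower (limma, SE 0.21 on the log2 scale, adjusted p = 0.0559), Phlda3 3.51-fold lower, Ercc5 3.05-fold lower, Cdkn1a 2.98-fold lower and Mdm2 2.89-fold lower. None of these passed at 0.05. At an unadjusted p under 0.05 in limma, 16 members were lower in MC38 than in LLC (5.29% of all genes) and 0 were higher (6.24%), and at an adjusted p under 0.05 there were 0 members and 0% of all genes.

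**Figure D3:**
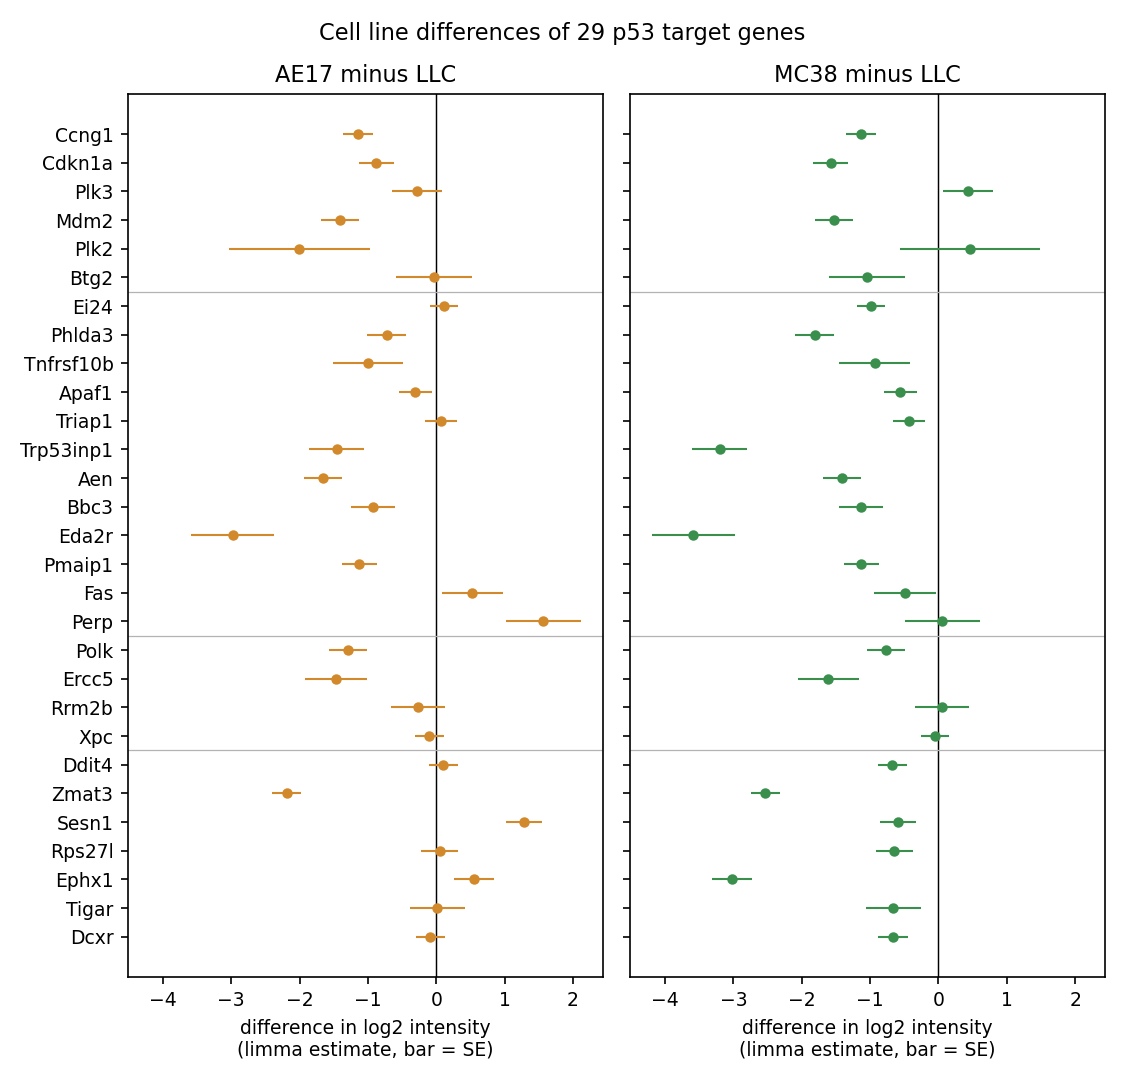
Difference in log2 intensity of the 29 members, AE17 minus LLC and MC38 minus LLC, as estimated by limma from both arrays of each line with the shRNA label as a term; bars are standard errors. For MC38 25 of the 29 points lie left of 0, and for AE17 20 do, with Perp and Sesn1 to the right.

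For 11 members both AE17 arrays lay below both LLC arrays (15.4% of all genes), and for 2, Perp and Sesn1, both lay above (26.2%). In the values as deposited the counts were 20 and 0, against 47.6% and 2.35%, and with centred arrays 9 and 2, against 9.74% and 21.2%. By at least 1 log2 unit 10 members were lower (3.01%) and 2 higher (6.18%). Zmat3 was 4.56-fold lower in AE17 than in LLC (limma, adjusted p = 0.167), Eda2r 7.86-fold and Aen 3.15-fold. On the probe set that Zmat3 shares, the AE17 levels of 6.95 and 6.26 spanned those of LLC, 6.39 and 6.52. Ccng1, Mdm2, Bbc3, Pmaip1, Phlda3, Trp53inp1, Polk and Ercc5 were lower by 1.66- to 2.77-fold. Between MC38 and AE17, 11 members had both MC38 arrays lower (26.9%) and 2, Plk2 and Polk, both higher (16.5%), which turned to 6 lower (3.86%) and 11 higher (55.1%) in the values as deposited. With centred arrays the counts were 10 lower (20.9%) and 2 higher (13.9%). By at least 1 log2 unit 8 were lower in MC38 than in AE17 (6.27%) and 1 was higher (3.79%). Cdkn1a, Btg2, Bbc3, Tnfrsf10b, Aen and Zmat3 overlapped between these lines.

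Calls between lines depended on the AE17 arrays, and limma gave 0 members and 0% of genes for AE17 against LLC and for MC38 against AE17 with all arrays. Unadjusted p-values under 0.05 went to 11 members lower (4.99%) and 2 higher (7.83%) in AE17 than in LLC, and to 9 lower (7.81%) and 0 higher (5.34%) in MC38 than in AE17. Without the AE17 sh Ctrl array, 7 members were called lower in AE17 than in LLC and 1, Perp, higher, among 8.59% of all genes called, and Sesn1, Ephx1 and Perp were called lower in MC38 than in AE17, among 6.89%. Without the AE17 sh Spp1 array, Tnfrsf10b and Zmat3 were called lower and Sesn1 higher in AE17 than in LLC, among 3.04%, and 4 members were called lower and Plk2 higher in MC38 than in AE17, among 6.5%. In such fits the lone array is taken to vary like the other groups. Without any single LLC or MC38 array, 0 members were called. In the values as deposited 5 members, Phlda3, Zmat3, Trp53inp1, Ephx1 and Eda2r, were called lower in MC38 than in LLC, among 1.34% of all genes. Zmat3, Aen and Eda2r were called lower in AE17 than in LLC there, among 0.613%, and Ephx1 lower in MC38 than in AE17, among 1.71%.

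Line and hairpin met on 1 array. The LLC sh Spp1 array had the highest level of the 6 for 16 of the 29 members, against 16.2% of all genes, and the lowest for 0, against 18.4%. The MC38 sh Ctrl array had the lowest level for 12 members, against 15.9% of all genes, and the highest for 1, against 11.5%. Cdkn1a went from 9.77 on the MC38 sh Ctrl array to 11.97 on the LLC sh Spp1 array, and Bbc3 from 5.83 to 7.85.

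Genes around the pathway were read in the same way. Of 24 regulators of p53, 23 were tested, and higher on the sh Spp1 array were 11 in LLC (median -0.05), 10 in AE17 (-0.06) and 11 in MC38 (-0.05; 15 as deposited). The highest means were those of Ppp1r13l, an inhibitor of p53, at 0.76 ± 0.26, and the acetyltransferase Crebbp at 0.60 ± 0.83 (SD, n = 3 lines). The lowest were the damage kinases Atr at -0.81 ± 0.86 and Atm at -0.68 ± 0.71. Mdm4, the partner of Mdm2, had 10.07 and 10.47 for LLC, 9.09 and 8.26 for AE17, and 9.35 and 8.85 for MC38. Between MC38 and LLC the regulators were 11 higher and 12 lower, with no overlap of arrays for 6 and 5, near the 24.9% and 24.2% of all genes.

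Of 20 further p53 targets, 17 were tested, and higher with the hairpin were 12 in LLC (median 0.38; 9 as deposited), 9 in AE17 (0.09) and 8 in MC38 (-0.02; 11 as deposited). Their highest means were the sulfatase Sulf2 at 1.15 ± 1.95 and Sesn2 at 1.02 ± 0.21, and their lowest the efflux pump Abcb1a at -0.51 ± 0.41 and the spindle protein Ckap2 at -0.46 ± 0.89 (SD, n = 3 lines). In MC38 against LLC 13 of 17 were lower. Both MC38 arrays lay below both LLC arrays for 6 (24.2% of all genes) and above for 1 (24.9%).

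Genes repressed through p21 and the DREAM complex, which shuts off cell cycle promoters, were lower on the sh Spp1 array for 12 of 14 in LLC (median -0.60), 9 of 14 in AE17 (-0.29) and 9 of 14 in MC38 (-0.05), but with centred arrays for 3, 4 and 0 of 14. As deposited 11, 9 and 0 were lower, where 25.7%, 37.9% and 56.8% of all genes were higher. Relative to the median of all genes the list's median was -0.62 for LLC, -0.25 for AE17 and -0.07 for MC38 after quantile normalisation, but 0.06, 0.12 and 0.21 as deposited, so its direction turned with the scaling. The lowest means were Top2a and Ttk, each at -0.87, and the highest Cdc20 at 0.43 and Aurka at 0.18. Between the lines, after quantile normalisation, they ran opposite to the p53 targets, which was not counted for this list under the other scalings. In MC38 14 of 14 were higher than in LLC, 13 with both arrays above, against 24.9% of all genes, with a median difference of 0.88. For AE17 against LLC 11 had both arrays above, against 26.2%. Their part in the differences of the p53 targets was not tested. No gene of these 3 lists passed limma over the lines at an adjusted p under 0.05, and at an unadjusted p under 0.05 there were 1 of 23 regulators, 1 of 17 further targets and 4 of 14 repressed genes, against 6.05% of all genes.

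The relation of member ratios to all genes depended on the scaling in size but not in sign. Relative to the median of all genes, the member medians were 0.59 for LLC, 0.11 for AE17 and 0.12 for MC38, and 1.02, 0.34 and 0.13 in the values as deposited.

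**Figure D4:**
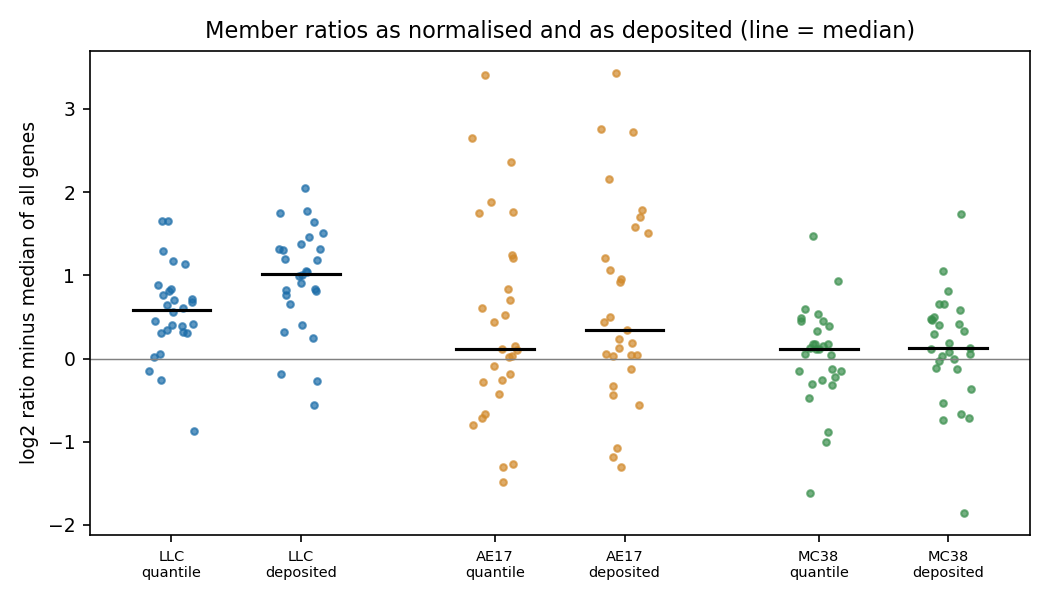
Log2 ratio of sh Spp1 over sh Ctrl minus the median ratio of all genes in that line, for members above the brightness floor (1 point each), after quantile normalisation and as deposited; horizontal lines are medians. The LLC median moves from 0.59 to 1.02, and the AE17 points spread the most on both scales.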

How the data were processed

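RNA of 3 cell lines under 2 labels was measured on 6 one-colour whole-transcript arrays. The deposited values are linear intensities for each probe set. RMA is named in the submitters' processing notes and GeneSpring GX 12.5 in the design text, and their settings are not given in the sources used here. Intensities were log2 transformed and quantile normalised in limma 3.58.1 (R 4.3.3). Of the probe sets, 23521 had 1 gene symbol in the platform annotation, 1814 several and 16010 none. By Entrez ID 23328 matched RefSeq (GRCm38.p6), with 0 symbols changed, and 1 listed alias, Rfwd2, was read as Cop1. The brightest probe set with 1 symbol stood for its gene. Genes were tested where that mean reached the 30th percentile, 4.49, and counted within a line where at least 1 array reached it.

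Hairpin and line effects came from 1 limma model with line and shRNA terms (2 residual degrees of freedom) and Benjamini-Hochberg adjustment over 16797 genes, tested on simulated data. The line pairs the arrays and is the block. No label names separate cultures, so p-values measure only the spread between these samples. Members and lists were chosen with earlier results of these data known. Levels on each array were given for members past 1 log2 unit in a line or of 1 sign in all lines, with others where a comparison needed them, and for other lists the 2 highest and 2 lowest means. Mdm4, Col1a1 and the levels of Sesn2 were added after their values were seen. Alternatives were scaling, brightness filter, probe set rule, block, variance prior, fold threshold, shRNA term and left-out arrays. Promoter windows came from RefSeq. The sequences shown were chosen by their decamer match instead of by ratio as planned, since Zmat3, of the most even ratio among members past 1 log2 unit, had no window. Figures used matplotlib 3.10.9 in Python 3.11.15.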

Additional observations from a re-analysis of the deposited data

How the results depend on the processing

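The number of arrays limits the precision, and ratios within a line have no error of their own. No gene passed limma over the lines under any alternative run, without the cell line block included, and no member ratio past 1 log2 unit changed sign. Values as deposited, with their own brightness floor, gave 1 LLC member lower by at least 1 and 2 MC38 members higher. Their medians relative to all genes were 1.07 (LLC), 0.34 (AE17) and 0.16 (MC38). Called there were 3 members for AE17 against LLC (0.613% of all genes), 5 for MC38 against LLC (1.34%) and 1 for MC38 against AE17 (1.71%). Centred arrays gave 19 members above 0 in every line (41.5% of all genes) and 1 below (8.12%). By at least 1, 21 LLC and 3 MC38 members were higher and 1 AE17 member lower. Centring also put 71.8% of all genes above 0 in LLC. The medians relative to all genes were 1.02, 0.35 and 0.13. The Bbc3 ratio in LLC was 0.72 as deposited, and with centred arrays Rrm2b and Sesn1 had -0.87 and -0.98 in AE17. Without a brightness filter the medians were 0.57, 0.10 and 0.13 and 1 member was called for MC38 against LLC. A filter at the 50th percentile gave medians of 0.57 in LLC and 0.11 in MC38, with 1 member called for MC38 against LLC and 1 for MC38 against AE17. The mean of probe sets gave 0.58 in LLC. Each measured member had 1 probe set of its own, so this rule could move only the median of all genes. A trended robust prior called 1 member for MC38 against LLC, and dropping the shRNA term called 1 there and 1 for MC38 against AE17. The shares of all genes called under these filters and models are not given here. Such calls thus cannot be read as particular to the members. At a threshold of 0.58, 15 LLC members were higher and 1 lower, 6 AE17 members lower, and 3 MC38 members higher and 3 lower. At 1.5, 2 LLC members were higher, 1 AE17 member lower and 0 MC38 members higher. The shares of all genes past 1 as deposited or centred, and past these other thresholds, are not given here. These fold counts thus cannot be read as particular to the members. Leaving out 1 line gave 11 to 17 members above 0 and 2 to 6 below 0 in the remaining lines, a check chosen after seeing the data, as were the counts of lines without overlap under other scalings. Leaving out 1 array gave 0 to 8 members called for AE17 against LLC and 0 to 5 for MC38 against AE17. The causes of these changes were not tested.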

Other observations

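Stress genes driven by ATF4, a transcription factor of the integrated stress response that also acts on Ddit4 and Sesn2, were measured by a list of 10. On the sh Spp1 array 7 were higher in LLC (median 0.59; 8 as deposited), 5 in AE17 (0.30) and 7 in MC38 (0.14; 9 as deposited). Atf5, a factor of the same response, had a mean log2 ratio of 1.17 ± 0.49 and Vldlr, a lipoprotein receptor, 1.29 ± 2.21, while the amino acid synthesis genes Asns and Psat1 had -0.18 ± 0.27 and -0.10 ± 0.15 (SD, n = 3 lines). After quantile normalisation all 10 were lower in AE17 than in LLC, as were 6990 of all 16797 genes. For 6 of the 10 the arrays did not overlap, against 15.4% of all genes. Other scalings of this comparison are not given here. None passed limma at an adjusted p under 0.05 over the lines, and 2 had an unadjusted p under 0.05, against 6.05% of all genes.

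Across the 29 members the hairpin ratios of LLC and AE17 had Pearson r = 0.59 and Spearman rho = 0.46, those of LLC and MC38 0.26 and 0.38, and those of AE17 and MC38 0.24 and 0.27. Over all genes tested r was 0.07, 0.14 and 0.04. These lines share no array, genes are not independent replicates, and each ratio rests on 2 arrays.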
